A study of Homo sapiens with 2 samples.

Results

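Long intergenic non-coding RNAs, named with LINC and a number, and antisense RNAs, named after the gene on the opposite strand with the ending -AS, were examined in KYSE150 cells with and without knockdown of the long non-coding RNA lncRNA625. Of 22465 genes with an array row of their own, 1312 carried such a name, 542 of the LINC kind and 770 of the antisense kind. The 241 RNAs described here, 89 LINC and 152 antisense, were those whose brightest row had a mean of at least 5.0 over both arrays, on the log2 scale of the deposited values. That mean chose them and is given below as a description only. KYSE150 is an established cell line derived from a human squamous carcinoma of the esophagus, grown here in RPMI-1640 medium with 10% fetal bovine serum. Both groups carried a stably expressed short hairpin RNA, a scrambled one (shscramble) in the control and shlncRNA625 in the knockdown. Per the study's methods, shlncRNA625 was delivered by lentivirus with puromycin selection, and clones were screened by PCR for lncRNA625 knockdown. For the control, the methods state only that the scrambled hairpin was delivered by virus. Total RNA of each group was hybridized to 1 Human Transcriptome Array 2.0, which gives 2 arrays without replicates. Values therefore come without an estimate of error and were not tested, and precision is limited by how few arrays there are.

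LINC RNAs are transcribed from their own loci between protein-coding genes. Antisense RNAs are read from the strand opposite a gene and can overlap it or start beside its promoter. Some act on the neighbouring gene in cis, by recruiting chromatin modifiers or by masking its mRNA, some bind proteins or microRNAs elsewhere in the cell, and for many no function is known. In squamous tumors, LINC and antisense RNAs are studied as candidate promoters of growth and invasion.

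For the arrays as a whole, the median over all 70523 rows was 4.34 in the control and 4.35 in the knockdown. Of 8 markers of epithelium or squamous carcinoma, 5 were measured. Of these, 4 lay above the range of the 23 rows of background probes, with KRT14 at 5.63 inside it. Of these 5, KRT5 (16.50 and 16.11) and DSG3 (11.51 and 11.25) were lower on the knockdown array, SOX2 (7.87 and 8.40) was higher, and KRT14 and EPCAM were equal. Of 12 markers of other cell types, 10 had a row, all at 3.53 to 4.68 and equal on both arrays. The signal of lncRNA625 itself was not analysed here, since no row was tied to it, and the label of the knockdown array thus went unchecked.

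Of these 241 RNAs, 49 (20.3%) had unequal values on the 2 arrays, against 24.0% of all genes with a mean of at least 5.0. LINC00525 was the 1 RNA past 1.5-fold, which is 0.585 on the log2 scale, and it was higher on the knockdown array. Of all those genes, 1.60% were past 1.5-fold in either direction. The study used the 1.5-fold limit for its gene counts. At the 2-fold limit that its array methods also name, 0 RNAs were called, and the share of all genes was not counted. Below 1.5-fold, a family of repeated LINC loci (LINC01061, LINC01002, LINC01001) and LINC01000 had higher values, whereas LINC00707, LINC00958, FLRT2-AS1 and FOXD2-AS1 had lower values. In 192 of the 241 RNAs, 79.7%, the deposited values were exactly equal on both arrays. In all 11267 genes with a mean of at least 5.0, this share was 76.0%, so an equal pair cannot be read as a measured equality. In bulk RNA, fewer cells with an RNA and less of it per cell cannot be told apart.

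The 3 members of the repeated family had entries in the RefSeq promoter table (GRCh38.p14), and their sequences are shown because 1 row may measure RNA of several copies. Each line below is the stretch of 233 bases that their promoters share without a gap, read 5′ to 3′ along the gene's strand, with capitals at the 6 positions where the 3 copies differ. It lies at chr11:131871-132103 on the minus strand for LINC01001, at chr19:202160-202392 on the minus strand for LINC01002 and at chr4:119410636-119410868 on the minus strand for LINC01061. Counting the annotated start of each gene as 0, it runs from -250 to -18 in LINC01001, from -183 to 49 in LINC01002 and from -208 to 24 in LINC01061.
LINC01001: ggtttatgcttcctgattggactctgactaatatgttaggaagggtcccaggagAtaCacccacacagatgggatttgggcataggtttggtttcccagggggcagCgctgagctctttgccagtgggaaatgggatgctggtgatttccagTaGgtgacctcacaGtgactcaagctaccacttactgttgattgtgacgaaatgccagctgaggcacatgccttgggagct
LINC01002: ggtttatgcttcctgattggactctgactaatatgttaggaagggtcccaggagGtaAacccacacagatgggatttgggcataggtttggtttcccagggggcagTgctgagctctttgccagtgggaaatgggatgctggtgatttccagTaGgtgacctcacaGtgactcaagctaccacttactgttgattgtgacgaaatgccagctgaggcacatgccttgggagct
LINC01061: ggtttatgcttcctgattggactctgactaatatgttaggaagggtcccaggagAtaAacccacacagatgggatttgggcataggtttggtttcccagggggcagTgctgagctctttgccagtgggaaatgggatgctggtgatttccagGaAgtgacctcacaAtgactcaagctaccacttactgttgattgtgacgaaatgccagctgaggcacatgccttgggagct

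In this stretch, LINC01001 and LINC01002 were 98.7% identical, LINC01001 and LINC01061 97.9%, and LINC01002 and LINC01061 98.3%. In each of them the letters ATTGG, which are CCAAT on the other strand, stand near the start of the stretch. The promoters of LOC100132287, LOC107985355, LOC100132062 and LOC107986794 held copies of the same stretch, chosen by their sequence and named after the values had been seen. LINC01000 had no entry in the promoter table.

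The rows of the family had higher values on the knockdown array throughout. LINC01061, also listed as KIKAT, was at 9.86 in the control and 10.33 in the knockdown, a log2 difference of 0.47. LINC01002 was at 10.59 and 10.93, a difference of 0.34. LINC01001 was at 10.05 and 10.24, a difference of 0.19. All 3 therefore lay well above the background probe rows and none of them passed the limit. There were 2 further rows that carry both LOC100132287 and LOC100132062 as symbols and are no members. They were at 9.35 and 9.55, a difference of 0.20, and at 10.68 and 10.90, a difference of 0.23. Probes of near-identical copies can bind the same RNA, so these 5 rows may not be separate measurements, and which copy gave the signal cannot be told apart.

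**Figure D1:**
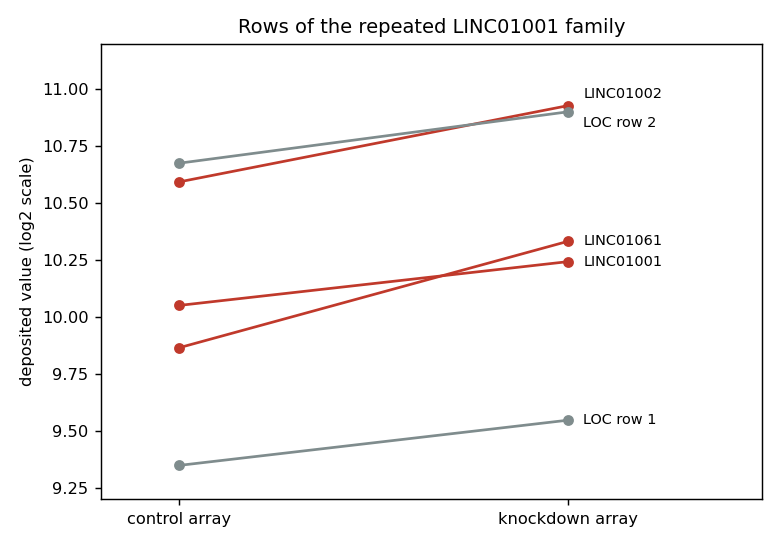
Deposited log2 values (y axis) of the 3 LINC members of the repeated family and of 2 rows shared by LOC100132287 and LOC100132062 (LOC rows 1 and 2) on the control and the knockdown array (x axis), 1 point per array and a line joining the values of a row. All 5 lines go up, by 0.19 to 0.47.

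Among LINC RNAs, 18 had higher values on the knockdown array, 8 had lower values and 63 were equal. A difference in either direction was thus found in 29.2% of LINC RNAs, against 24.0% of all genes with a mean of at least 5.0 and 15.1% of antisense RNAs. The mean difference was 0.027 over LINC RNAs and 0.0054 over all these genes, and both medians were 0. Without LINC00525 and the repeated family, leaving 85 LINC RNAs, an alternative chosen after seeing the data, the mean was 0.0063. LINC00525 was past 1.5-fold, 1 of 89, where 1.12% of all genes with a mean of at least 5.0 were higher by more than 1.5-fold. No LINC RNA was lower by more than 1.5-fold, against 0.479% of those genes.

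LINC00525 was at 4.61 in the control and 5.51 in the knockdown, a log2 difference of 0.90. Both values fell inside the background range, which had its median at 3.34 and a highest value of 6.003 on either array, and the control value lay below the limit of 5.0. The size of this difference is therefore uncertain. In the annotation, the protein-coding genes next to LINC00525 were TNS3, a tensin of focal adhesions, and PKD1L1, both named after their values had been seen. TNS3 was at 9.03 in the control and 9.82 in the knockdown, a difference of 0.80, also past 1.5-fold. PKD1L1 was at 3.85 on both arrays.

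The other LINC RNAs with higher values differed by 0.26 or less outside the repeated family. LINC02210, formerly CRHR1-IT1, was at 10.26 in the control and 10.52 in the knockdown, a difference of 0.26, and its 2 further rows differed by 0.14 and 0.31. LINC01000 was at 11.22 and 11.37, a difference of 0.15. Both of these rows were far above the background probes, whereas the further rows of LINC02210, at 4.52 and 4.66 and at 5.44 and 5.76, were within the background range. LINC02893 was at 5.92 and 6.15 (0.23), LINC00920 at 6.75 and 6.96 (0.21) and LINC00663 at 5.32 and 5.43 (0.11). Of these 3, LINC00920 alone had both values above the highest background row.

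Of the 8 LINC RNAs with lower values, 5 were among the 12 lowest differences of all members. LINC00707, reported to promote growth of tumor cells, was at 11.87 in the control and 11.60 in the knockdown, a difference of -0.27, and had the highest mean of all members. LINC00958, also called BLACAT2 and known from bladder cancer, was at 11.15 and 10.89, a difference of -0.26. LINC00857, likewise studied in tumor growth, was at 8.14 and 7.98, a difference of -0.16. All 3 lay above the background range on both arrays. LINC00460, 1 of the lncRNAs that the study picked out in esophageal tumors, was at 5.07 and 4.99, a difference of -0.078 at the level of background rows. LINC01546 was at 5.23 and 5.18, a difference of -0.057, at that level too.

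Several bright LINC RNAs had exactly the same value on both arrays. LINC00273 was at 10.65, LINC00265 at 10.60 and LINC00294 at 10.40. LINC00963 was at 9.91, and LINC00152, whose current name is CYTOR and which is raised in many carcinomas, at 7.87. These are the brightest rows, and a further row of LINC00273 was at 4.21 and of LINC00963 at 6.02, both equal. The value of LINC00152 was shared with 7 other rows. Of the 10 LINC RNAs with a mean of at least 10, 5 had higher values, 2 had lower values and 3 were equal. The 3 members of the repeated family are 3 of those 5. Since rows rest on different probes, the order of these values is not an order of abundance.

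**Figure D2:**
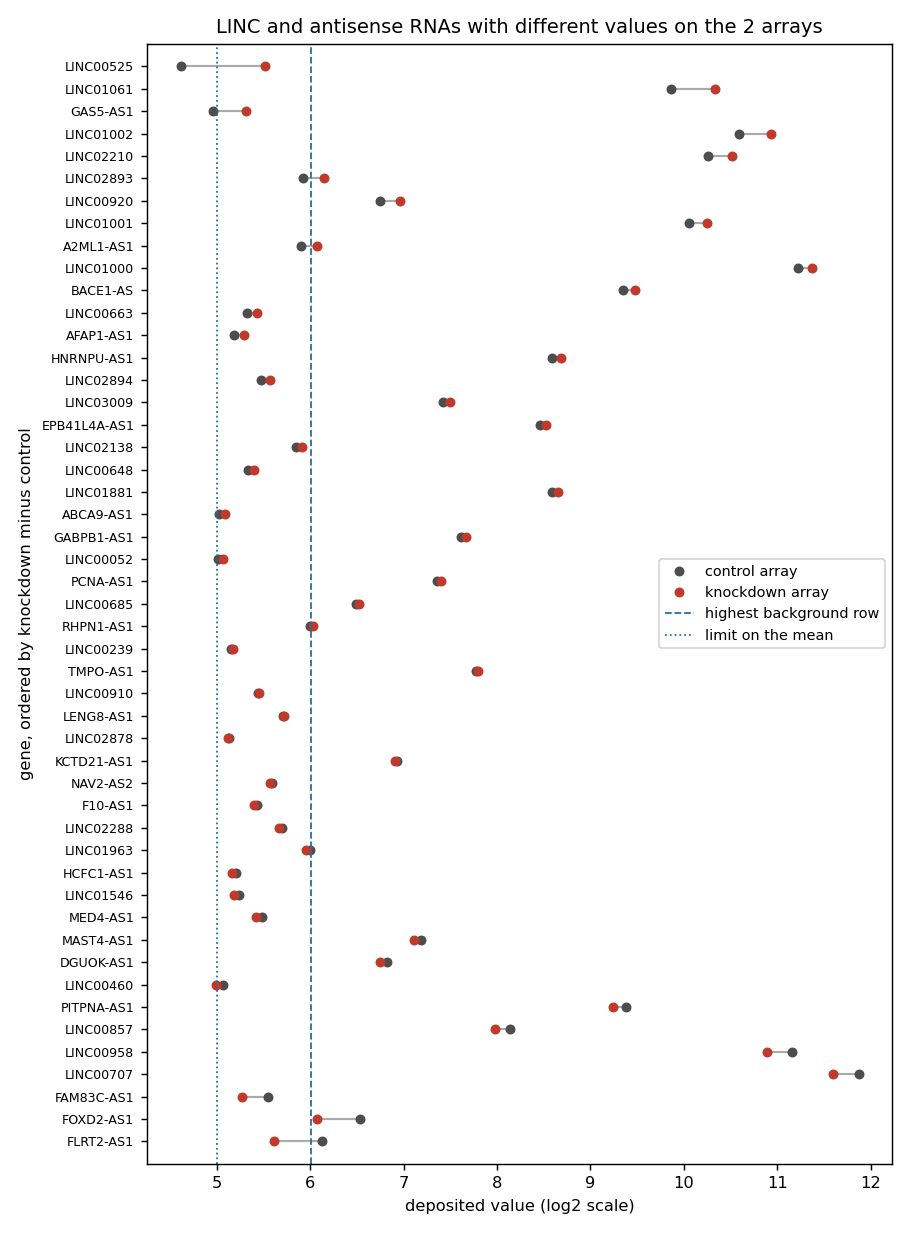
Deposited log2 values (x axis) on the control array (grey) and the knockdown array (red) of the 49 members with unequal values, 1 row per gene ordered by knockdown minus control, with lines at the limit of 5.0 and at the highest background row of 6.003. LINC00525 shows the widest gap, 4.61 against 5.51, and FLRT2-AS1 the widest in the other direction, 6.13 against 5.61.

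Among antisense RNAs, 12 had higher values, 11 had lower values and 129 were equal, and 0 of 152 were past 1.5-fold in either direction, against 1.60% of all genes with a mean of at least 5.0. Their mean difference was -0.0038. The difference between LINC and antisense RNAs could not be tested with 1 array per group. Among members with a mean from 5 to 6, 13 of 47 LINC RNAs and 11 of 92 antisense RNAs had unequal values. All genes in that band stood at 9.69%. From 6 to 8, the counts were 4 of 28 LINC RNAs (14.3%) and 8 of 52 antisense RNAs (15.4%), against 16.6% of all genes. A larger share among LINC RNAs was thus not seen from 6 to 8. From 8 to 10, 2 of 4 LINC RNAs and 4 of 6 antisense RNAs were unequal, against 28.7% of all genes. At 10 or more, 7 of 10 LINC RNAs, the repeated family included, and 0 of 2 antisense RNAs were unequal, against 46.1%.

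FLRT2-AS1 had the lowest difference of all members, at 6.13 in the control and 5.61 in the knockdown (-0.51). Its partner FLRT2, a membrane protein of cell adhesion and axon guidance, was at 6.06 and 5.83, a difference of -0.23. The starts of this pair lie 1515 bases apart on opposite strands in RefSeq. Both rows of the pair reached the background range on the knockdown array. FOXD2-AS1, reported as raised in several cancers, was at 6.54 and 6.07 (-0.47), just above that range. Its partner FOXD2, a forkhead transcription factor, was at 3.50 on both arrays. FAM83C-AS1 was at 5.55 and 5.27 (-0.28), within the background range, and FAM83C was at 4.41 on both arrays.

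Smaller differences were found in further antisense RNAs. PITPNA-AS1 was at 9.38 in the control and 9.24 in the knockdown (-0.14), and PITPNA, a phosphatidylinositol transfer protein, at 11.12 and 11.04 (-0.082). BACE1-AS, which stabilizes the mRNA of the beta-secretase BACE1, was at 9.35 and 9.48 (0.13), whereas BACE1 was at 7.56 on both arrays. DGUOK-AS1 differed by -0.073, from 6.82 to 6.75, and MAST4-AS1 by -0.072, from 7.18 to 7.11. The partners of both, DGUOK at 9.25 and MAST4 at 7.65, were equal on both arrays. MED4-AS1, at 5.48 and 5.42, differed by -0.064, and MED4, a Mediator subunit, was equal at 9.48. The MED4-AS1 row lay within the background range.

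Of the 12 members with the highest differences, 3 were antisense RNAs, and apart from BACE1-AS they were dim. GAS5-AS1, antisense to the growth-arrest RNA GAS5, was at 4.96 in the control and 5.31 in the knockdown (0.35), its control value being below 5.0. A2ML1-AS1 was at 5.90 and 6.08 (0.17), and its partner A2ML1, a protease inhibitor of keratinocytes, was at 3.69 on both arrays. EMC3-AS1 at 10.50 and OIP5-AS1 at 10.25 had the highest means among antisense RNAs and were equal on both arrays. OIP5-AS1, known as cyrano in zebrafish, promotes the decay of a microRNA.

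**Figure D3:**
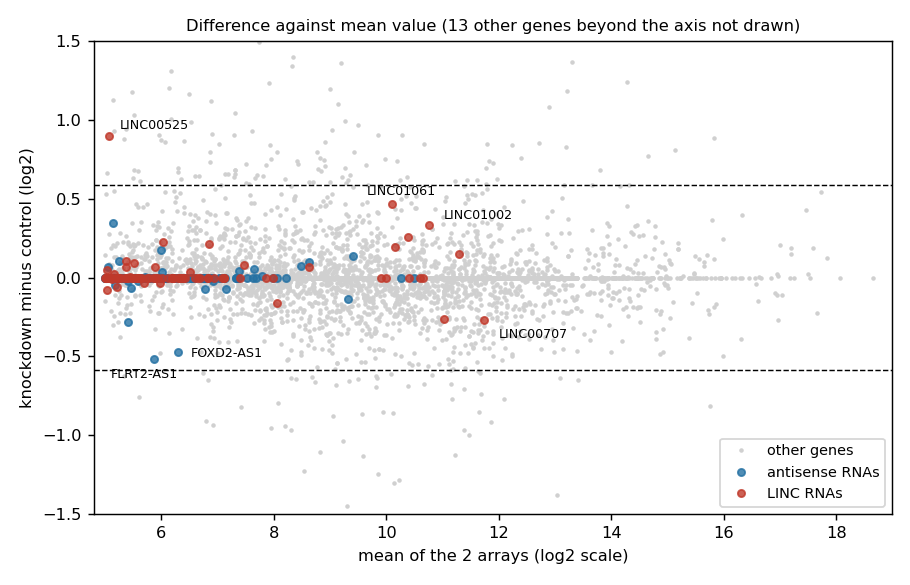
Difference, knockdown minus control on the log2 scale (y axis), against the mean of both arrays (x axis) for LINC RNAs (red), antisense RNAs (blue) and all other genes with a mean of at least 5.0 (grey), with dashed lines at 1.5-fold and 13 other genes beyond 1.5 not drawn. LINC00525 is the 1 coloured point beyond the lines, and most members lie at 0.

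A partner on the other strand was found by name for 141 of the 152 antisense RNAs, and 105 of these partners had a mean of at least 5.0. Of the 105, 10 had higher values, 16 had lower values and 79 were equal. Higher by more than 1.5-fold were 2 partners (1.90%), against 1.12% of all genes, and 0 were lower. C1RL, a protease related to complement C1r, was at 7.49 in the control and 8.13 in the knockdown, a difference of 0.64. Its antisense RNA C1RL-AS1 was equal at 6.02. HLA-F, a nonclassical MHC class I gene, was at 8.89 and 9.53, a difference of 0.64. HLA-F-AS1 was equal at 5.97. HLA-F-AS1 lay within the background range and shared its value with 29 other rows, and C1RL-AS1 shared its value with 2, so neither equal value shows that the antisense RNA did not change. HLA-F and HLA-F-AS1 were read from rows on different alternative haplotypes of the MHC region.

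Both RNAs differed in 6 of 141 pairs. For scale, 15.1% of the 152 antisense RNAs and 18.4% of the 141 partners had unequal values. Both were lower in PITPNA-AS1, FLRT2-AS1 and HCFC1-AS1 and their partners, and both were higher in LENG8-AS1 and LENG8. The antisense RNA was higher and its partner lower in HNRNPU-AS1 and GABPB1-AS1, and no pair showed the reverse. The gene ID of the HNRNPU-AS1 row now belongs to HNRNPU itself in RefSeq, so that pair may not be 2 separate genes. The antisense RNA alone differed in 16 pairs, the partner alone in 20, and 99 pairs were equal on both sides. Partners with unequal values beside an equal antisense RNA included the ceramide synthase CERS6 with a difference of -0.33 and LRP4, a receptor of the LDL receptor family, with -0.26, both chosen after their values were seen. These counts describe 2 arrays and do not separate pairs that are regulated together from pairs that are not.

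**Figure D4:**
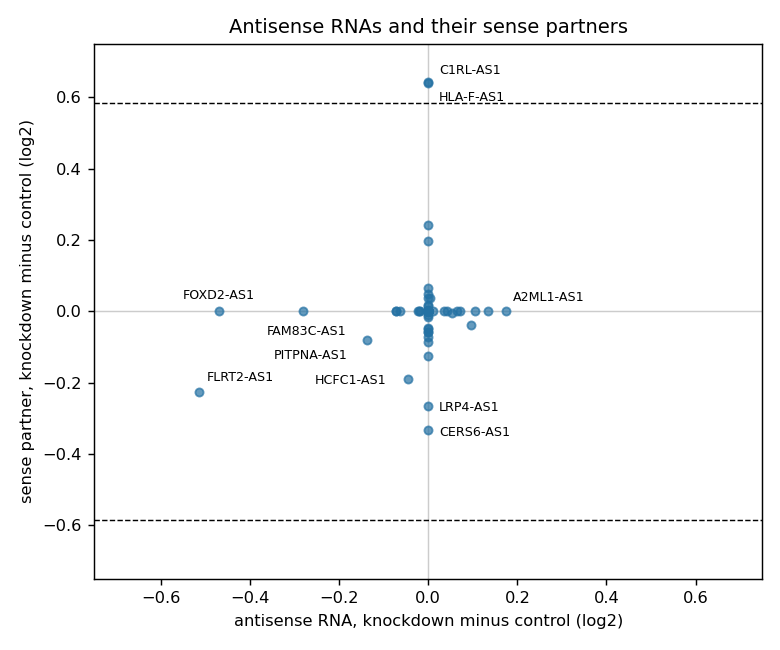
Difference of the antisense RNA (x axis) against that of its sense partner (y axis), both knockdown minus control on the log2 scale, for the 141 pairs, 1 point per pair, with dashed lines at 1.5-fold of the partner and labels naming the antisense RNA. Most points lie on 1 of the 2 zero lines, C1RL-AS1 and HLA-F-AS1 nearly coincide at 0 and 0.64, and FLRT2-AS1 stands apart at the lower left.

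The start sites of 107 pairs could be compared in RefSeq. In 24 pairs the starts diverged from within 1 kb of each other, so that both RNAs leave 1 shared promoter region. Of these 24, 1 antisense RNA and 7 partners had unequal values, and LENG8-AS1 with LENG8 was the pair with both. In 12 pairs the starts lay within 1 kb and the transcripts overlapped, with 1 antisense RNA and 2 partners unequal. In 71 pairs the starts were more than 1 kb apart, with 13 antisense RNAs and 8 partners unequal and 3 pairs unequal on both sides. Over all genes with a mean of at least 5.0, 24.0% were unequal, and over all genes below 5.0, 5.94%. Of the 141 partners, 105 reached 5.0, so the partner counts mix both ranges. Nothing particular to an orientation was read from these counts.

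LINC RNAs were likewise set beside the nearest protein-coding gene on either side, which could be found for 85 of 89. Of the 73 neighbours with a mean of at least 5.0, 9 had higher values, 11 had lower values and 53 were equal, so 72.6% were equal against 76.0% of all genes. TNS3 was the 1 neighbour past 1.5-fold, 1.37% of the 73, where 1.12% of all genes were higher by more than 1.5-fold. The neighbours named next were chosen after their values were seen. EFNB2, an ephrin ligand next to LINC00460, was at 8.01 in the control and 7.68 in the knockdown (-0.33). XRCC5, a subunit of the Ku DNA repair complex next to LINC01963, was at 13.17 and 12.77 (-0.40). KPNA2, an importin next to LINC00674, was at 15.15 and 14.68 (-0.47), whereas LINC00674 was equal on both arrays. TEAD1, a transcription factor of the Hippo pathway next to LINC00958, was equal at 10.09, and RASSF10 on its other side was at 4.92 and 4.65.

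The share of unequal values varied with the mean of the row. From 5 to 6, 17.3% of 139 members had unequal values against 9.69% of all genes in that band. From 6 to 8, it was 12 of 80 members against 16.6% of all genes. At 8 or more, it was 59.1% of 22 members against 36.5%, with 9 members higher and 4 lower. The 22 members include the repeated family, whose rows may not be separate measurements. Over all members, 12.4% were higher against 11.9% of all genes, and 7.88% were lower against 12.2%.

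**Figure D5:**
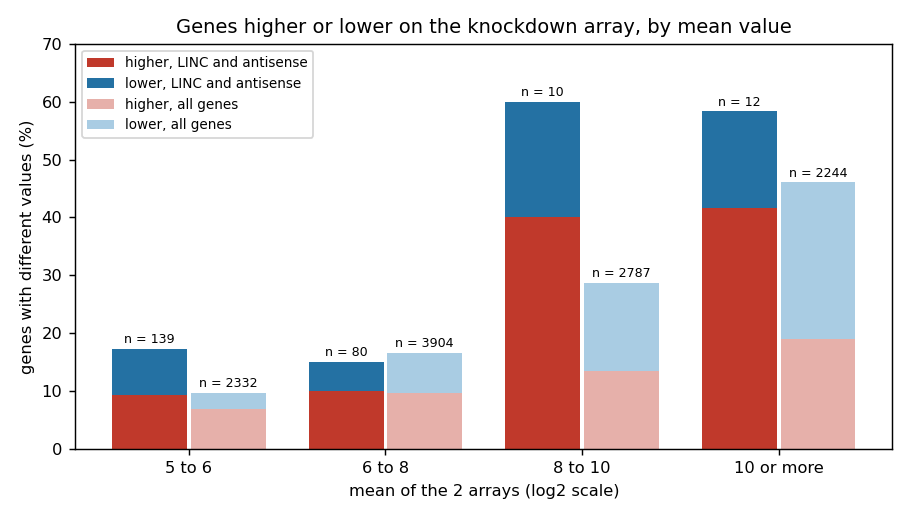
Share of genes with unequal values (percent, y axis) in 4 bands of mean log2 value (x axis), split into higher (red) and lower (blue) on the knockdown array, for the members (dark) and for all genes (pale), with the number of genes above each bar. The members stand at 17.3% in the lowest band and 58.3% in the highest, where all genes stand at 9.69% and 46.1%.

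The limit of 5.0 itself lay within the range of background probes, and 140 of the 241 members had a mean no higher than the top background row. Just inside the limit were LINC00959 at 5.004 and INTS6-AS1 and RUSC1-AS1 at 5.005. Just outside were LIN28B-AS1 at 4.996, ERCC6L2-AS1 at 4.99 and CHL1-AS1 at 4.98. All 6 were equal on both arrays. A mean at this level does not show that the RNA was present.

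By gene ID, symbol or synonym, all 241 members were found in RefSeq, 228 as lncRNA, 2 as antisense RNA, 4 as transcribed pseudogenes and 7 as protein-coding genes. The protein-coding ones include MMP24-AS1, now MMP24OS, and LINC00959, now C10orf143. Of the 18 members with a new symbol, 15 no longer fit the naming rule. They stayed among the members, since the rule used the names of the array annotation.

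Exactly equal members often shared their value with other rows, which can include further rows of the same gene. Of the 192 equal members, 152 (79.2%) had a value found in another transcript cluster on both arrays, against 1 of the 49 members with unequal values. That 1 was LINC00685, whose match was its own further row. Over all transcript clusters, such sharing was found in 86.7% of equal and 8.65% of unequal rows, so the sharing belongs to the table and not to these RNAs. The share was 93.9% of equal members from 5 to 6, 60.3% from 6 to 8 and 33.3% at 8 or more, where all equal clusters stood at 88.2%, 66.2% and 28.8%. The largest group of members with a single value, 5.02, held 8 of them, among them VIM-AS1, and 100 rows of the table had that value. CDKN2B-AS1 and MDC1-AS1 shared 5.04. For such rows the deposited number is not particular to the gene.

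Of the 7 LINC and antisense RNAs that the study names, 5 had a row and 2 reached a mean of 5.0. The study chose them on tumor tissue and not on these arrays. These 2 were LINC00460, given above, and CDKN2B-AS1, also called ANRIL, which represses the CDKN2A and CDKN2B tumor suppressor locus and was equal at 5.04. DLX6-AS1 at 3.74, WT1-AS at 4.14 and LINC00261 at 3.26 were below the limit and equal on both arrays.

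Of 18 further LINC RNAs known from cancer, 6 were members, with 0 higher, 2 lower and 4 equal, where 11.9%, 12.2% and 76.0% of all genes with a mean of at least 5.0 were higher, lower and equal. The lower ones were LINC00707 and LINC00958, and LINC00152, LINC00963, LINC00520 at 5.54 and LINC00665 at 5.19 were equal. Of 31 antisense RNAs known from cancer or cell growth, 13 were members, with 3 higher, 1 lower and 9 equal, to be read against the same shares. AFAP1-AS1, raised in esophageal adenocarcinoma, was at 5.18 in the control and 5.29 in the knockdown (0.11). PCNA-AS1, antisense to the replication clamp PCNA, differed by 0.043 and TMPO-AS1 by 0.011, and PCNA was equal at 11.68. FOXD2-AS1 was the lower one. ZEB1-AS1 at 6.91, TTN-AS1 at 6.70, SBF2-AS1 at 5.94, MCM3AP-AS1 at 5.56, PSMA3-AS1 at 7.04, FGD5-AS1 at 6.76 and MAPKAPK5-AS1 at 6.79 were equal, as were OIP5-AS1 and VIM-AS1.

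Of 13 RNAs in a list made for immune antisense RNAs, which also holds BISPR without an -AS name, 2 were members. HLA-F-AS1 and SOCS2-AS1, the latter at 5.46, were both equal. Median differences were 0 in the lists of cancer-related LINC RNAs, cancer-related antisense RNAs and immune antisense RNAs, as they were over all genes with a mean of at least 5.0.

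Promoters of 300 bases were found in RefSeq for 172 members. A core of interferon-response elements, the letters GAAA repeated after any 2 bases, stood on either strand in 0 of 15 higher members, 1 of 14 lower members and 3 of 143 equal members, against 3.65% of all 27305 promoters. The letters CCAAT stood in 8 of 15 higher members (53.3%), 4 of 14 lower members (28.6%) and 49 of 143 equal members (34.3%), against 35.7% of all promoters. Of the 8 higher members with CCAAT, 3 are the copies of the repeated family shown above. A match of letters is a description of the sequence and not a bound site.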

How the data were processed

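Total RNA was measured on 1 Affymetrix Human Transcriptome Array 2.0 per group. The deposited values are log2 signals that the authors made with RMA per the labels (version not given), a method of background correction, quantile normalization and summary over the probes of each row. They reach 19.93, above the 16 that a 16-bit scanner allows, by a step not given in the sources used here, so folds hold on the deposited scale only. A sample label speaks of siRNA where the series and the methods speak of a stable hairpin, and labels and methods name different extraction kits.

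Of 70523 rows, 23781 carry exactly 1 symbol in the platform annotation, and each gene was read from its row with the highest mean. Differences are knockdown minus control. The call was the study's 1.5-fold, and no test was made. Sense partners were found by removing the -AS ending, and neighbours and promoters came from RefSeq (GRCh38.p14), promoters spanning 250 bases before to 50 bases after the start. Copies among promoters shared at least 20 runs of 15 bases. Named are the 12 highest and the 12 lowest differences, the 10 highest means, 3 RNAs on each side of the limit of 5.0, antisense pairs past the limit and members of the lists. Members and lists were chosen with earlier results of these data known. Alternatives were limits of 6.0, 5.0 on both arrays or none, 2-fold and 1.2-fold limits, median centring, a second quantile normalization, loess (span 0.3), the mean over rows and updated symbols. On simulated data, a noise-free copy of the control array with 11254 genes, all 100 genes raised and all 100 lowered by 1 log2 were called, with 0 other calls, which checks the steps only. Python 3.11.15, pandas 2.3.3, NumPy 2.4.6, statsmodels 0.14.6, Biopython 1.88 and matplotlib 3.10.9 were used.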

Additional observations from a re-analysis of the deposited data

How the results depend on the processing

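LINC00525 was the 1 member past 1.5-fold wherever any was, but the count of members higher by more than 1.5-fold, and likewise of LINC RNAs, was 0 with 5.0 asked of both arrays, with a limit of 6.0 (102 members), with a 2-fold limit and with a mean above the highest background row, an alternative chosen after seeing the data (101 members). With the limit of 6.0 and with the mean above the highest background row, 17 members had higher and 8 had lower values, and 1 sense partner was past 1.5-fold. Above the highest background row, these were 16.8% and 7.92% of 101 members, against 13.2% and 14.6% of all 8916 genes there. Of those genes, 1.23% were higher by more than 1.5-fold. Without a limit, 65 of 1312 RNAs had higher and 56 lower values, and 6 partners were past 1.5-fold. At 2-fold, 0 partners were. At 1.2-fold, 4 members were higher and 4 lower, LINC RNAs 3 and 1, antisense RNAs 1 and 3, and sense partners 2 and 2. The matching shares of all genes with the limit of 6.0, without a limit, at 1.2-fold and at 2-fold were not counted, so these counts are a description only. Rescaling moves equal pairs off 0: median centring left 213 members lower, a second quantile normalization 209 (median -0.0121, mean -0.0062, reversed in sign) and loess 214 (median -0.0132, mean -0.0067, reversed in sign), while the median of all single rows was then between -0.0065 and -0.0039. The mean over rows and updated symbols kept every count within 1.5 times. No paired analysis was possible because each group holds 1 array. Signal close to the background probes, up to 6.003, limits 140 members.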

Other observations

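Of the 1071 LINC and antisense RNAs with a mean below 5.0, 35 had higher values on the knockdown array, 37 had lower values and 999 were equal. Their differences ran from -0.35 to 0.27 and 0 of them passed 1.5-fold, and among all genes below 5.0, 94.1% were equal. Members with more than 1 row had 19 further rows, of which 3 were higher, 0 lower and 16 equal. Rows that carry several symbols, 1 of them LINC or antisense, numbered 57, and 1 was higher, 1 lower and 55 equal, with differences from -0.11 to 0.068. LINC00869 and LINC00875 were the only other members whose promoters shared at least 20 runs of 15 bases, with 68 in common, and both were equal on both arrays.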
